A study of Rattus norvegicus with 12 samples.

Results

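The Fos and Jun genes encode the subunits of AP-1, a transcription factor that binds DNA as a dimer. All probe sets annotated to Fos, Fosb, Fosl1, Fosl2, Jun, Junb or Jund were taken from the array table, which gave 13 of the 31042 probe sets without controls and 7 of the 14217 named genes. The 4 Fos genes had 6 of these probe sets and the 3 Jun genes had 7. The Affymetrix rat arrays were hybridised with RNA of 2 brain structures of male Wistar rats, the nucleus accumbens and the anterior cingulate cortex. In both structures 1 group had been treated with TsA and the other with vehicle, and the labels give no dose of TsA and no age of the rats. TsA commonly stands for trichostatin A, which inhibits histone deacetylases, although the full name is given nowhere in the labels. The rats of all 4 groups had self-administered cocaine, at 0.3 mg/kg per injection in 40 µl, in 4 daily sessions of 2 h, and died 2 h after the last one. There was no group without cocaine, so the values describe the family after cocaine intake and hold no comparison with cocaine-naive rats. Each group had 3 arrays, each of a pool of 2 rats. The labels do not say whether accumbens and cingulate pools share rats, and the p-values measure only the spread between these pools.

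Proteins of the Jun family can pair with each other or with a Fos protein, whereas Fos proteins need a Jun partner to bind DNA. Neurons switch on Fos, Fosb, Jun and Junb within minutes of strong synaptic input or dopamine receptor stimulation, and the messages of most of them decay within hours, while Jund is made steadily in many cell types. In the nucleus accumbens, a structure of reward learning, psychostimulants induce Fos and Fosb, and a truncated splice product of Fosb, ΔFosB, builds up with repeated exposure.

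The expression values were MAS5 signals, a linear brightness per probe set that the authors had scaled array by array. Differences are given on the log2(signal + 16) scale, from 1 limma model of all 12 arrays, with an adjusted p of 0.05 as the threshold. The added 16 understates the change of dim probe sets. The structure labels were checked against marker genes. All 7 striatal projection neuron markers on the array were higher in the accumbens, with a summed signal of 7294 to 7842 in the TsA arrays and 7121 to 8926 in the vehicle arrays of the accumbens, against 684 to 813 and 710 to 829 in the TsA and vehicle arrays of the cingulate cortex. All 7 cortical projection neuron markers were lower in the accumbens, all 6 oligodendrocyte markers were higher and all 7 meningeal and fibroblast markers were lower. Of the lower ones, Neurod1 and Ogn had means under 17.4, the signal limit of the test, in both accumbens groups. They were tested through their cingulate signal, so their direction is no separate check of the labels. Neurod2 and Tbr1 had means under that limit in the accumbens vehicle arrays. No marker list of the 8 had a gene past the threshold between TsA and vehicle in either structure. Median signals of the arrays ran from 26.8 to 33.1.

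The promoter windows of 3 members are printed because Fosb and Junb passed the test between the structures, given below, and Jund did not. Of the 7 members, 5 had an entry in the RefSeq promoter table (build GRCr8), Fosb, Fosl1, Fosl2, Junb and Jund. Each window runs from 250 bases before the annotated gene start to 50 bases after it, 5′ to 3′ on the strand of the gene. Capitals mark TGACG, the core of the cyclic AMP response element, the site bound by CREB, on either strand. The full palindrome TGACGTCA, which holds 2 overlapping copies of that core, is capitalised as a whole.
Fosb, chr1:88089135-88089434, minus strand: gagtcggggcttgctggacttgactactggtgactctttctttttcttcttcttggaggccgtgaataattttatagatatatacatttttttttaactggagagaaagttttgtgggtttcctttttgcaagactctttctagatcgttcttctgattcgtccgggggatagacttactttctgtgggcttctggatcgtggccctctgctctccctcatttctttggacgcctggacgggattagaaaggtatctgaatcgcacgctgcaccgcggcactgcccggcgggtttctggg
Junb, chr19:40080876-40081175, plus strand: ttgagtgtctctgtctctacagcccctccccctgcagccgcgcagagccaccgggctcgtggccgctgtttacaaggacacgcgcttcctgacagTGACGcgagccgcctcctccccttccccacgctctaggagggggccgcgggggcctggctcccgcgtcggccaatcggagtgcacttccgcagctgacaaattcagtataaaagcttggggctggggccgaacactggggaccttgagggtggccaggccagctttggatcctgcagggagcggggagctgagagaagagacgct
Jund, chr16:18769722-18770021, minus strand: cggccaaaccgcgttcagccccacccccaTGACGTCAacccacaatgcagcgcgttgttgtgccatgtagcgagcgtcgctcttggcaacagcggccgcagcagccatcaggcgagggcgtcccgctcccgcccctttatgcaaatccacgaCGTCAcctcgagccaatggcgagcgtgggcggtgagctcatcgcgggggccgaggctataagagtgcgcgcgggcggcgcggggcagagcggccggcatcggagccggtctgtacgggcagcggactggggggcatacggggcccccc
The Jund window held TGACGTCA once, starting 221 bases before the gene start, and a separate TGACG on the opposite strand. The Junb window held 1 TGACG, starting 155 bases before the start, and the Fosb window held none. Of all 33469 promoter windows of the same length, 1.83% held TGACGTCA and 21.2% held TGACG on either strand. The AP-1 site itself, TGACTCA, was found in 0 of the 5 member windows and in 4.63% of all windows. CCAAT stood once each in the Junb and Jund windows, 85 and 86 bases before the start, and in 37.5% of all windows. GGGCGG, a GC box, was present in the windows of Fosl1, Fosl2 and Jund, with 1, 2 and 3 copies, and in 33.1% of all. The CArG box, the site of serum response factor, was found in none of the 5 and in 1.64% of all windows. These are letter matches only, on both strands, and a window without a match says nothing about sites elsewhere.

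The question of the first comparison was how the level of each family member differed between the 2 structures. Fos, Fosb, Jun and Junb had lower signals in the accumbens than in the cingulate cortex, and Jund and Fosl2 did not pass the test. Of the 10 probe sets bright enough to be tested, 6 were lower in the accumbens, against 20.4% of all probe sets tested, and 0 were higher, against 24.4%. Of all probe sets, 44.8% passed in either direction. The median difference of the 10 was -0.35 and that of all 18625 probe sets tested was 0.04. These 6 probe sets belonged to 4 of the 6 genes tested.

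Fos, the early-induced subunit used as a marker of recently active neurons, had signals of 245, 269 and 329 in the accumbens TsA arrays and of 193, 232 and 275 in the accumbens vehicle arrays. In the cingulate cortex its signals were 449, 454 and 340 in the TsA arrays and 402, 573 and 458 in the vehicle arrays (probe set 1375043_at). Every accumbens array lay below every cingulate array. The mean was 257 ± 45.9 in the accumbens and 446 ± 76.7 in the cingulate cortex (SD, n = 6 each), a log2 difference of -0.76 ± 0.12 (SE, adjusted p = 0.000139 by limma). The order of the group means was cingulate vehicle, cingulate TsA, accumbens TsA and accumbens vehicle, and within each structure the TsA and vehicle groups overlapped.

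Fosb, which also encodes ΔFosB, had signals of 99.3, 119 and 114 in the accumbens TsA arrays and of 80.3, 113 and 117 in the accumbens vehicle arrays. Its signals were 129, 150 and 129 in the cingulate TsA arrays and 117, 173 and 178 in the cingulate vehicle arrays. Here the structures touched, since 1 cingulate vehicle array lay just below the highest accumbens array. The mean was 107 ± 14.7 in the accumbens and 146 ± 25.4 in the cingulate cortex (SD, n = 6 each), and the difference of -0.39 ± 0.11 passed the threshold (adjusted p = 0.0118 by limma). Fosb had 1 probe set, and which of its splice products that probe set reads was not tested.

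The other Fos genes gave dim signals. Fosl2, a Fos-related antigen also induced by stimulation, had signals of 29.0, 24.1 and 32.8 in the accumbens TsA arrays and of 21.1, 25.7 and 33.4 in the accumbens vehicle arrays. Its signals were 22.6, 29.4 and 28.6 in the cingulate TsA arrays and 32.3, 37.9 and 35.3 in the cingulate vehicle arrays (1383860_at). The structures overlapped, and the difference of -0.10 ± 0.09 had a 95% interval of -0.30 to 0.09 (adjusted p = 0.365 by limma). The second Fosl2 probe set, 1387530_a_at, averaged 21.2 ± 3.49 in the accumbens and 22.1 ± 2.53 in the cingulate cortex (SD, n = 6 each), also without a call (adjusted p = 0.714 by limma). Fosl1, which encodes Fra-1, averaged 8.30 over the 12 arrays, below the limit of 17.4 set for the test. Its signals ran from 7.15 to 12.1 and from 8.87 to 11.9 in the TsA and vehicle arrays of the accumbens, against 2.53 to 10.05 and 5.36 to 8.79 in those of the cingulate cortex. The second probe sets left out for the same reason were Fos 1371283_at, with a mean of 3.63, and Jund 1375768_at, with a mean of 1.77. With the limit removed these 3 probe sets gave no call in any of the 7 comparisons, and the lowest adjusted p among them was 0.221 by limma.

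Jun, the founding member of the family and a substrate of the JNK kinases, was lower in the accumbens by all 3 of its probe sets. The brightest of them, 1389528_s_at, had signals of 259, 225 and 265 in the accumbens TsA arrays and of 203, 190 and 262 in the accumbens vehicle arrays. In the cingulate cortex it had signals of 349, 379 and 343 in the TsA arrays and of 351, 439 and 398 in the vehicle arrays. No accumbens array reached the lowest cingulate array. The mean was 234 ± 32.7 in the accumbens and 376 ± 37.2 in the cingulate cortex (SD, n = 6 each), with a difference of -0.66 ± 0.09 (adjusted p = 4.21e-05 by limma). Probe set 1369788_s_at had the largest difference of the 10 tested. Its signals were 162, 147 and 141 in the accumbens TsA arrays and 130, 160 and 171 in the accumbens vehicle arrays, against 291, 312 and 312 in the cingulate TsA arrays and 304, 347 and 310.5 in the cingulate vehicle arrays. The structures were far apart, at 152 ± 15.3 in the accumbens and 313 ± 18.4 in the cingulate cortex (SD, n = 6 each), with a difference of -0.97 ± 0.08 (adjusted p = 3.08e-07 by limma). The third probe set, 1374404_at, gave 61.0 ± 4.86 in the accumbens and 80.0 ± 10.7 in the cingulate cortex (SD, n = 6 each), and its difference of -0.31 ± 0.09 was the smallest of those that passed (adjusted p = 0.0115 by limma). For this probe set 1 cingulate vehicle array, at 62.5, fell inside the accumbens range. The 3 probe sets shared the direction and differed in the size of the difference. Of them, 1389528_s_at and 1374404_at are annotated to the same source sequence.

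Junb, an induced subunit that can dampen the activity of Jun, had signals of 103, 97.6 and 113 in the accumbens TsA arrays and of 101, 105 and 124 in the accumbens vehicle arrays. Its signals were 140, 147 and 134 in the cingulate TsA arrays and 131, 153 and 165 in the cingulate vehicle arrays. The structures did not overlap. The mean was 107 ± 9.53 in the accumbens and 145 ± 12.8 in the cingulate cortex (SD, n = 6 each), a difference of -0.39 ± 0.08 (adjusted p = 0.00113 by limma).

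Jund, the steadily made member, had signals of 1309, 1408 and 1430 in the accumbens TsA arrays and of 1135, 1482 and 1527 in the accumbens vehicle arrays. In the cingulate cortex its signals were 1275, 1413 and 1245 in the TsA arrays and 1224, 1665 and 1320 in the vehicle arrays (1393138_at). The 4 groups covered much the same range. The mean was 1382 ± 142 in the accumbens and 1357 ± 165 in the cingulate cortex (SD, n = 6 each). The difference was 0.03 ± 0.09, with a 95% interval of -0.17 to 0.22 (adjusted p = 0.828 by limma). The other tested probe set of Jund, 1387762_s_at, could not carry a comparison, since its signals within the cingulate vehicle group alone were 15.3, 105 and 21.7. Its difference of -0.01 had a 95% interval of -0.83 to 0.80.

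**Figure D1:**
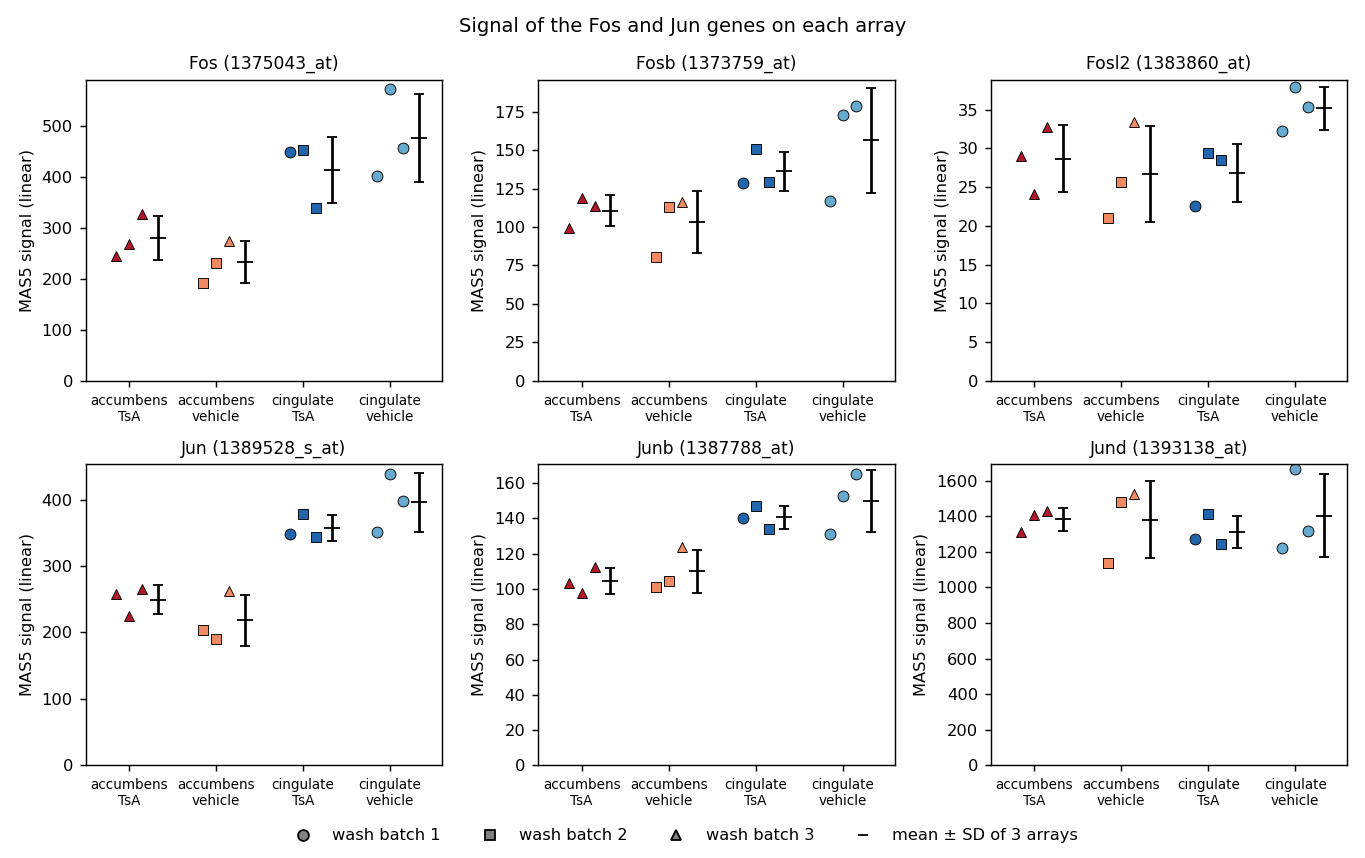
MAS5 signal of the main probe set of each tested Fos and Jun gene on the 12 arrays. Fosl1, which was too dim to be tested, is not shown. There is a point for each array and a line for the mean of each group of 3 arrays, accumbens left of cingulate cortex and TsA left of vehicle. All accumbens points of Fos, Jun and Junb lie below all cingulate points, whereas the Jund groups cover one range, around means of 1382 in the accumbens and 1357 in the cingulate cortex.

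In all, 4 of the 10 probe sets had accumbens arrays wholly below the cingulate arrays, against 12.7% of all probe sets tested. These were Fos, Junb and the Jun probe sets 1389528_s_at and 1369788_s_at. The arrays held bulk tissue, in which fewer cells of a type and less RNA per cell cannot be told apart. The marker lists moved with the same contrast: the summed signal of the 7 cortical projection neuron markers ran from 326 to 596 in the accumbens TsA arrays and from 171 to 586 in the accumbens vehicle arrays, against 2226 to 2587 in the cingulate TsA arrays and 2141 to 2533 in the cingulate vehicle arrays. The 7 meningeal and fibroblast markers summed to between 192 and 221 and between 195 and 250 in the TsA and vehicle arrays of the accumbens, against 379 to 910 and 766 to 829 in those of the cingulate cortex. In the accumbens vehicle arrays the means of 3 cortical markers, Neurod1, Neurod2 and Tbr1, lay under the limit of 17.4, as did that of Neurod1 in the accumbens TsA arrays. The mean of Ogn, a meningeal and fibroblast marker, lay under it in both, at 11.5 in the TsA and 17.0 in the vehicle arrays. The part of these markers in the lower Fos and Jun signals was not tested.

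The arrays fell into 3 sets of 4, here called runs or wash runs, by the station and a morning or noon time in the run records. The header of that time is Hybridize Date, so the name wash run is a label given here. The first and second were both morning sets, on different stations. Structure and run were partly tied together. The first run held cingulate TsA array 1 and the 3 cingulate vehicle arrays. The second held accumbens vehicle arrays 1 and 2 and cingulate TsA arrays 2 and 3. The third held the 3 accumbens TsA arrays and accumbens vehicle array 3. With the run as a block in the model, 4 of the 10 probe sets stayed lower in the accumbens, against 11.3% of all probe sets. These were Fos, at -0.87 ± 0.25 (adjusted p = 0.0277 by limma), Junb, at -0.55 ± 0.17 (adjusted p = 0.0384), and the 2 Jun probe sets 1389528_s_at, at -0.95 ± 0.17 (adjusted p = 0.00239), and 1369788_s_at, at -1.19 ± 0.16 (adjusted p = 0.000453). Fosb, at -0.63 ± 0.25, and Jun 1374404_at, at -0.27 ± 0.21, were no longer called (adjusted p = 0.0961 and 0.374). Within the second run alone, accumbens vehicle minus cingulate TsA, 2 arrays each, gave -0.85 ± 0.17 for Fos and -0.83 ± 0.14 and -1.03 ± 0.15 for the same 2 Jun probe sets. These 3 passed by limma, with adjusted p-values of 0.0105, 0.00371 and 0.00200, against 10.8% of all probe sets called lower. Junb, at -0.40 ± 0.14, and Fosb, at -0.48 ± 0.18, did not (adjusted p = 0.0827 and 0.0953). That comparison mixes structure and treatment. Only the second run held both structures, so the values with the block draw on the same arrays and are no separate check.

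The structure difference was then taken apart by treatment. In the TsA arrays 4 of the 10 probe sets were lower in the accumbens, against 12.3% of all. In the vehicle arrays 5 were lower, against 16.5% of all. Fos was at -0.53 ± 0.17 in the TsA arrays (adjusted p = 0.0276 by limma) and at -0.99 ± 0.17 in the vehicle arrays (adjusted p = 0.000475). Jun 1389528_s_at was at -0.49 ± 0.12 in the TsA arrays and at -0.82 ± 0.12 in the vehicle arrays, and 1369788_s_at was at -0.96 ± 0.11 in the TsA arrays and at -0.99 ± 0.11 in the vehicle arrays. Junb was at -0.38 ± 0.11 in the TsA arrays and -0.40 ± 0.11 in the vehicle arrays. Fosb passed in the vehicle arrays, at -0.52 ± 0.16 (adjusted p = 0.0216 by limma), and had a value of -0.27 ± 0.16 in the TsA arrays (adjusted p = 0.250). The TsA and vehicle values of no member differed past the threshold when the difference between them was tested, as given below. Single arrays carried weight in both subsets. In the TsA arrays the number of probe sets called lay between 2 and 5 as each array was left out in turn, and it was 2 without cingulate TsA array 1, cingulate TsA array 2 or accumbens TsA array 2. Both in that subset and in the vehicle arrays, only the Jun probe sets 1389528_s_at and 1369788_s_at were called with the wash run as a block.

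**Figure D2:**
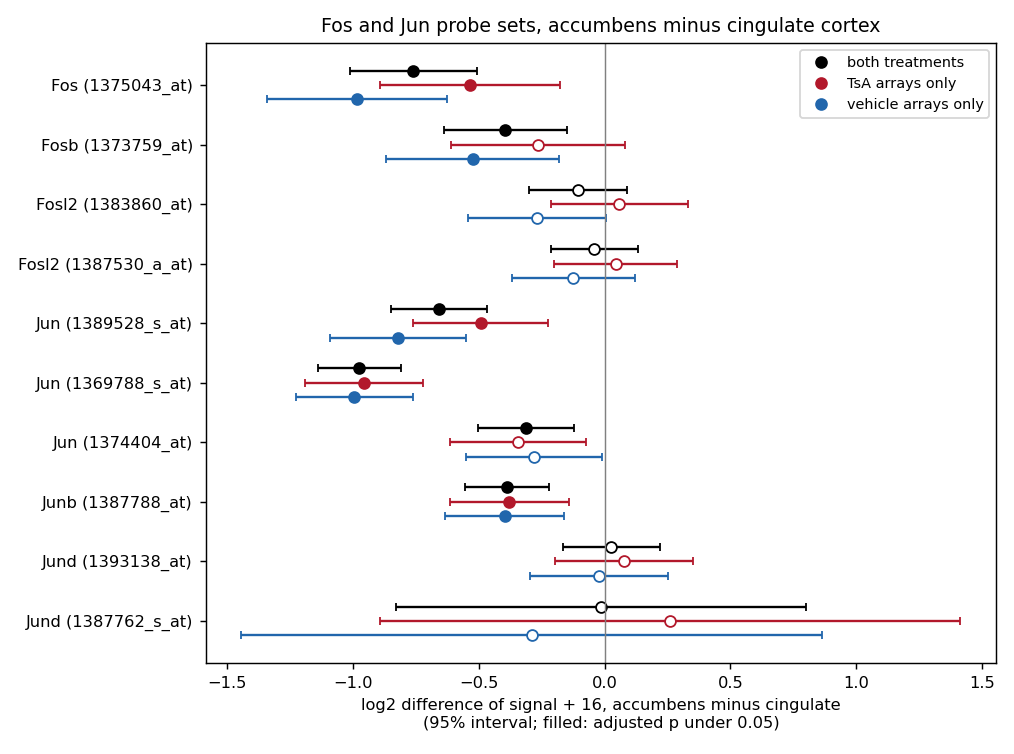
Log2 difference of signal + 16, accumbens minus cingulate cortex, for each tested Fos and Jun probe set, with 95% intervals, for all arrays (n = 6 per structure), the TsA arrays alone and the vehicle arrays alone (n = 3 per structure). Filled points passed an adjusted p of 0.05; Fos, 2 Jun probe sets and Junb are filled in all 3 comparisons, and the intervals of both Jund probe sets span 0 in all 3.

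The second question was whether TsA changed the family in either structure. No Fos or Jun gene passed the test. In the accumbens 0 of the 10 probe sets were called, and in the cingulate cortex 0 of the 10 were called, against 0.0% of all 18625 in each comparison (limma). At an unadjusted p under 0.05 (limma) there were also 0 of the 10 in each structure. Of all 18625 probe sets, 408 lay under it in the accumbens and 851 in the cingulate cortex. Against such small shares, 0 of 10 does not set the members apart.

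In the accumbens 7 of the 10 members had values above 0, with a median of 0.06 against 0.01 for all probe sets. Fos averaged 281 ± 43.2 in the TsA arrays and 233 ± 41.1 in the vehicle arrays (SD, n = 3 each), a difference of 0.26 with an interval of -0.10 to 0.61 (adjusted p = 1.00 by limma). Jun (1389528_s_at) averaged 250 ± 21.8 in the TsA arrays and 218 ± 38.3 in the vehicle arrays, and Fosb 111 ± 10.1 in the TsA arrays and 103 ± 19.9 in the vehicle arrays (SD, n = 3 each). Junb averaged 105 ± 7.57 in the TsA arrays and 110 ± 12.1 in the vehicle arrays. The TsA and vehicle arrays overlapped for all 10 probe sets. Overlap was also the rule over all probe sets, of which 3.01% had TsA arrays wholly above and 2.46% wholly below the vehicle arrays. With the wash run as a block 8 of the 10 accumbens values lay below 0, and the Fos value was 0.02 ± 0.22. The accumbens value with that block rests on 1 vehicle array, array 3, which was in the same run as the 3 TsA arrays. The 7 cortical projection neuron markers summed to 458, 326 and 596 on accumbens TsA arrays 1, 2 and 3 and to 400, 171 and 586 on accumbens vehicle arrays 1, 2 and 3, and their part in the Fos signal was not tested.

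In the cingulate cortex 9 of the 10 had values below 0, with a median of -0.11 against -0.02 for all. Fosl2 1383860_at was the only member whose groups did not overlap, with every TsA array, at 22.6, 29.4 and 28.6, below every vehicle array, at 32.3, 37.9 and 35.3. Of all probe sets, 8.47% had TsA arrays wholly below the vehicle arrays in that structure. The Fosl2 difference was -0.26 ± 0.13, with a 95% interval of -0.53 to 0.01 (adjusted p = 0.751 by limma). Fos averaged 414 ± 64.5 in the TsA arrays and 478 ± 86.8 in the vehicle arrays (SD, n = 3 each), a difference of -0.19 with an interval of -0.55 to 0.16. Fosb averaged 136 ± 12.5 in the TsA arrays and 156 ± 34.0 in the vehicle arrays, and Jun (1389528_s_at) 357 ± 19.1 in the TsA arrays and 396 ± 44.1 in the vehicle arrays. Junb averaged 141 ± 6.51 in the TsA arrays and 150 ± 17.3 in the vehicle arrays (SD, n = 3 each throughout). The TsA and vehicle arrays of these genes overlapped. With the wash run as a block, which leaves the comparison to cingulate TsA array 1 against the 3 vehicle arrays, the Fos value was -0.07 ± 0.22 and the Fosl2 value -0.41 ± 0.16 (adjusted p = 0.784 by limma).

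**Figure D3:**
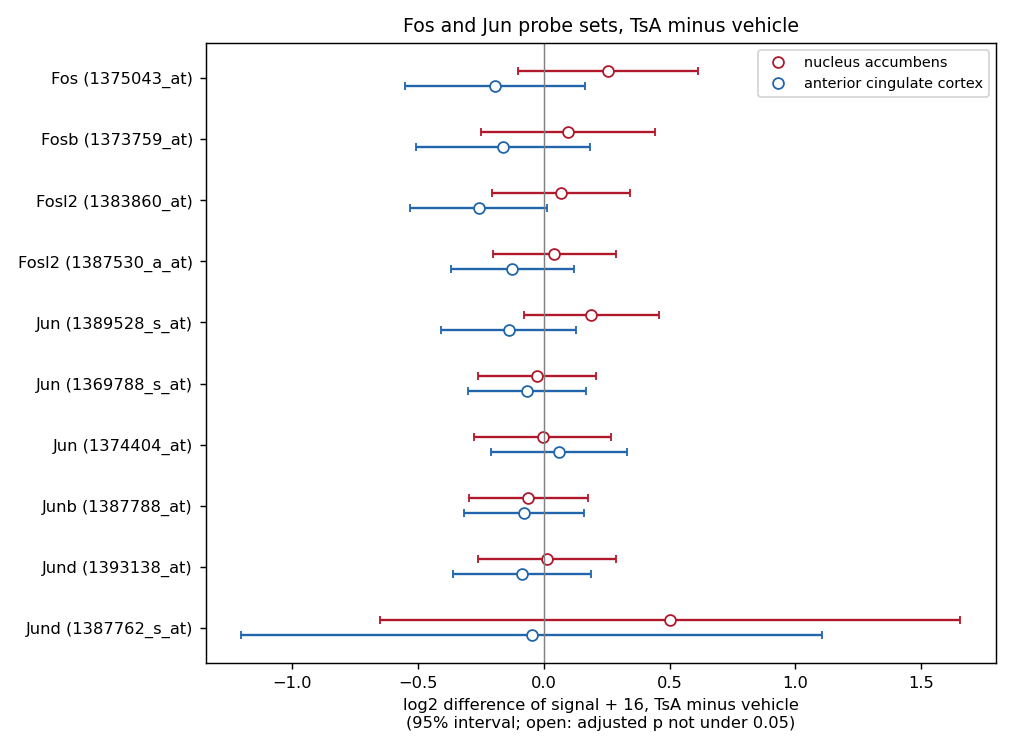
Log2 difference of signal + 16, TsA minus vehicle, for each tested Fos and Jun probe set, with 95% intervals, in the accumbens and the cingulate cortex (n = 3 arrays per group). All points are open because none passed an adjusted p of 0.05, and Fos lies at 0.26 in the accumbens and -0.19 in the cingulate cortex, with both intervals spanning 0.

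Averaged over the structures, TsA minus vehicle ranged from -0.09 to 0.23 over the 10 probe sets, with 0 called, against 0.0% of all (limma). An unadjusted p under 0.05 (limma) was found for 0 of the members and for 515 of all 18625 probe sets. The difference between the TsA effects, accumbens minus cingulate cortex, was above 0 for 9 of the 10, with a median of 0.21 against 0.03 for all. For Fos it was 0.45 ± 0.23, with an interval of -0.05 to 0.96 (adjusted p = 0.840 by limma). Of the members 0 passed, against 0.0% of all, and 0 had an unadjusted p under 0.05, against 662 of all 18625 probe sets. With the wash run as a block 6 of the 10 lay above 0, the median was 0.08 and the Fos value was 0.09 ± 0.31. The share of all probe sets above or below 0 was not counted, here or for either structure alone. The members also moved together on single arrays, as given below, so their signs are not 10 separate observations.

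After the mean of its group was taken from each array, 40 of the 45 pairs of tested probe sets correlated above 0 over the 12 arrays, with a median Pearson r of 0.49 and a range of -0.32 to 0.84. Of these pairs, 5 joined probe sets of 1 gene, and 35 of the 40 pairs of different genes lay above 0. Over all pairs of the 18625 probe sets tested, 50.7% lay above 0. Fos and Jund 1393138_at gave the highest r. The 3 accumbens TsA arrays had 4, 7 and 3 of the 10 probe sets below the mean of their group. In the accumbens vehicle group 9 lay below the mean on array 1 and 9 lay above it on array 3. All 10 lay above the group mean on cingulate vehicle array 2, and 8 lay below it on cingulate vehicle array 1. The same arrays stood apart over all probe sets: 50.3% of the variance within groups lay on 1 axis, with scores of 29.4 and -29.9 for accumbens vehicle arrays 1 and 3 and of 24.2 and -22.4 for cingulate vehicle arrays 1 and 2. All 10 members correlated below 0 with that axis, from -0.90 for Jund 1393138_at to -0.11 for Jun 1374404_at, and so did 58.6% of all probe sets tested. The part of that axis in the correlation between members was not tested, and members on the same arrays share whatever moved the array.

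**Figure D4:**
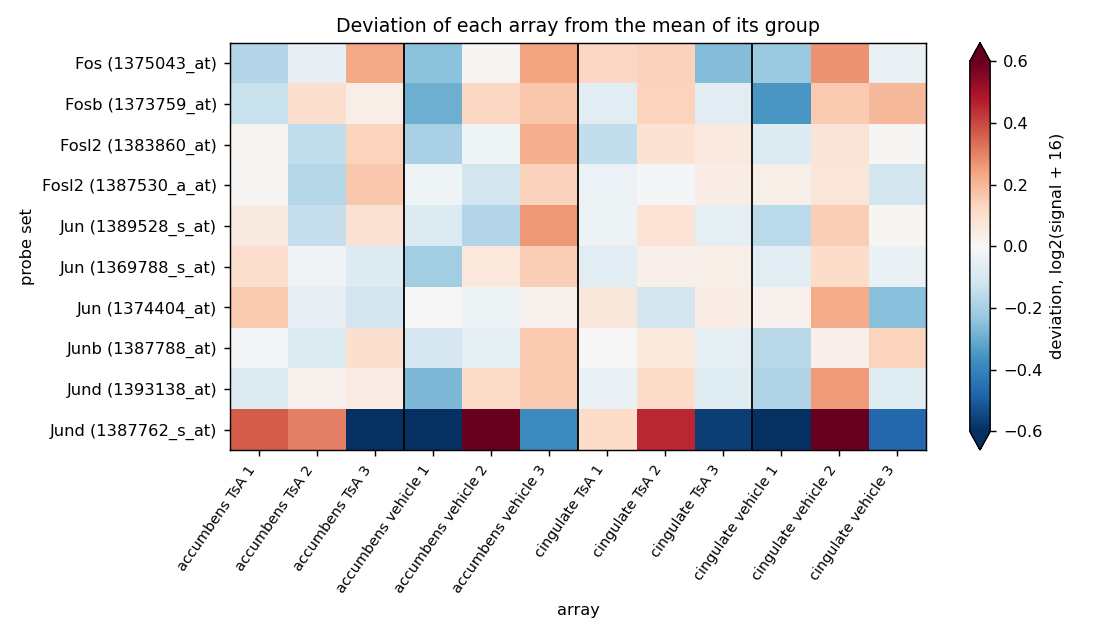
Deviation of each array from the mean of its group on the log2(signal + 16) scale, for the 10 tested Fos and Jun probe sets (rows) on the 12 arrays (columns), with colours ending at -0.6 and 0.6. Accumbens vehicle array 1 is below its group mean in 9 rows and array 3 above it in 9, cingulate vehicle array 2 is above it in all 10, and Jund 1387762_s_at in the lowest row runs past the colour scale.

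The genes whose deviations were most like those of the members were no members. Among 10381 genes with 1 probe set each, the highest Pearson r over the 12 arrays was 0.95 for Fos, with Snx15, and 0.98 for Fosb, with Dap. Fosl2 was most like Pde4a and Jun most like Adgra1, both at 0.98. Junb was most like Agpat1, at 0.97, and Jund most like Lpcat3, at 0.98. Of the 5 most alike genes of each of the 6 members, 0 of 30 were a Fos or Jun gene. These are the highest of many values and carry no test.

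The genes that work with AP-1 were counted from lists, with 1 probe set per gene, for accumbens minus cingulate cortex averaged over treatments. The lists were not counted with the wash run as a block, under which 11.3% of all probe sets were lower. Without the block, 24.4% of all probe sets tested were higher and 20.4% were lower. Other bZIP proteins that can pair with Fos or Jun proteins had 11 tested genes, of which 0 were higher and 3 were lower in the accumbens, against 24.4% and 20.4% of all. The 3 were Atf4, a stress-induced factor, at -0.88 ± 0.08, Maf, at -0.61 ± 0.09, and Ddit3, which encodes CHOP, at -0.39 ± 0.10. Of the 26 tested kinases and factors upstream of AP-1, 11 were higher, against 24.4% of all, and 4 were lower, against 20.4% of all. Rps6ka5 and Rps6ka4, which encode the kinases MSK1 and MSK2 that phosphorylate CREB and histone H3, were at 1.46 ± 0.12 and 1.16 ± 0.10. The JNK genes Mapk8 and Mapk9 were at -0.58 ± 0.12 and -0.63 ± 0.09, and Mef2c, an activity-regulated factor, was at -1.45 ± 0.08. Map2k1 and Mef2a were at 0.43 ± 0.07 and 0.48 ± 0.09. Genes of this group lay on both sides, with more of the calls on the higher side.

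Of the 13 tested inhibitors and turnover genes, 2 were higher and 6 were lower, against 24.4% and 20.4% of all. Dusp1 and Dusp6, phosphatases that switch off MAP kinases, were at -0.88 ± 0.20 and -0.95 ± 0.15, and Fbxw7, a ubiquitin ligase subunit that marks Jun for breakdown, was at -0.90 ± 0.13. Ppp3ca, a catalytic subunit of calcineurin, was at 0.43 ± 0.07. Of the 22 tested genes listed as AP-1 targets, 7 were higher and 6 were lower, against 24.4% and 20.4% of all. The neuropeptide genes Penk, Pdyn and Tac1 were higher in the accumbens, at 3.03 ± 0.08, 3.50 ± 0.14 and 3.28 ± 0.12, and Cck was lower, at -1.92 ± 0.23. Nts, the neurotensin gene, was higher too, with 264 ± 65.2 in the accumbens and 3.32 ± 1.83 in the cingulate cortex (SD, n = 6 each), and the second mean lies under the limit of 17.4, so the size of its difference depends on the added constant. Penk, Pdyn and Tac1 are made by striatal projection neurons, whose markers were all higher in the accumbens.

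The other early response genes, from a list of genes that are induced along with Fos, were counted in the same way. Of 28 tested, 18 were lower and 2 were higher in the accumbens, with a median of -0.35, against 20.4% lower among all probe sets. Bdnf, a neurotrophin, averaged 14.8 ± 4.50 in the accumbens and 125 ± 19.5 in the cingulate cortex (SD, n = 6 each). Its accumbens mean lies under the limit of 17.4, so Bdnf was tested through its cingulate signal and the size of its difference depends on the added constant. Ier5, Ptgs2, the inducible cyclooxygenase, and Egr2, a zinc finger factor, were at -2.02 ± 0.11, -2.10 ± 0.13 and -1.38 ± 0.10. The 2 that were higher were Sgk1, a kinase gene also induced by glucocorticoids, with 1207 ± 322 in the accumbens and 442 ± 97.2 in the cingulate cortex (SD, n = 6 each), and Rgs2, a regulator of G protein signalling, at 0.64 ± 0.15. All genes named from these lists passed the threshold (highest adjusted p = 0.00750 by limma). In the TsA comparisons 0 genes of any of these lists were called, against 0.0% of all probe sets.

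**Figure D5:**
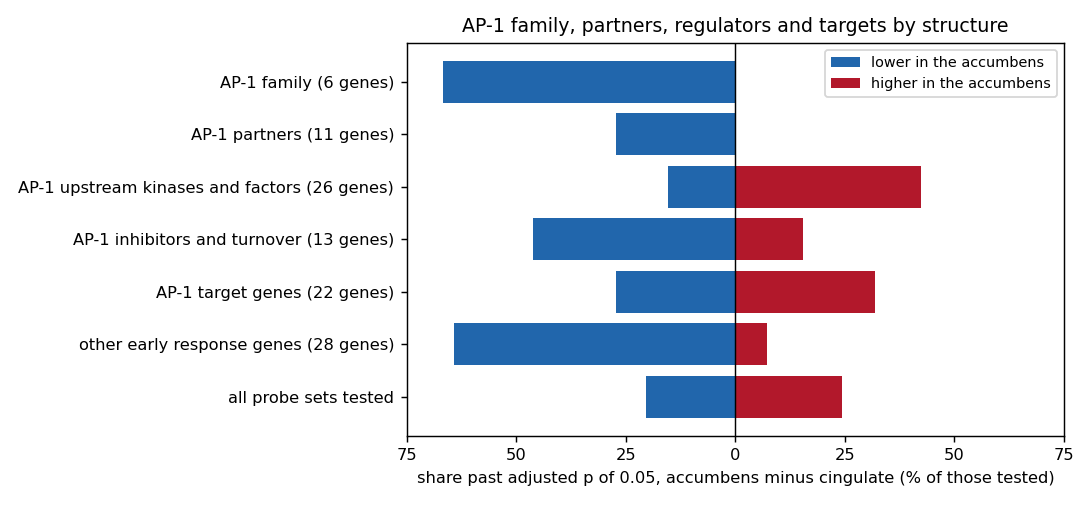
Share of tested genes past an adjusted p of 0.05 that were lower (left of 0) or higher (right of 0) in the accumbens than in the cingulate cortex, averaged over treatments, for the Fos and Jun genes, the lists of genes around AP-1 and all probe sets tested. The family, the inhibitors and turnover genes and the other early response genes have most of their calls on the lower side. The partners have 3 of 11 genes lower, a share near that of all probe sets, and 0 higher. The lowest bar gives 20.4% lower and 24.4% higher for all probe sets.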

How the data were processed

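RNA levels were read on 12 Affymetrix rat genome arrays, 3 for each of 4 groups. Per the submitters' processing notes, the authors used GCOS 1.4 and MAS5 to make the deposited intensity of each probe set, a linear signal. The 2% trimmed mean was 100.03 on every array, so the deposited intensity had been scaled array by array, and no further normalization was applied. The run records deposited with the arrays, other text fields, were used only to find the 3 wash runs. Detection calls and scanner values were not used.

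The table held 31099 probe sets, of which 57 were controls. Platform annotation gave 1 symbol to 20826 of the rest, several to 436 and none to 9780. Probe sets whose mean signal over the arrays ranked among the lowest 40% (under 17.4) were dropped, leaving 18625. The values log2(signal + 16) were fitted with limma 3.58.1 in R 4.3.3 (a mean per group, 8 residual degrees of freedom, eBayes with trend). All tests were two-sided, and p-values were adjusted by the Benjamini-Hochberg method over these 18625. The model was checked on simulated data. Alternatives were other constants, filters and scalings, the replicate number or wash run as a block, and leaving out each array. Tables were handled in Python 3.11.15 with pandas 2.3.3.

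All probe sets of the 7 genes are named, and the main probe set of a gene is the one with the highest mean signal. From each other list up to 4 genes with the smallest p in each direction may be named, and for each tested member the 5 genes with the most similar deviations. The members and lists were chosen with earlier results of these data known, so their counts are descriptions. The number of arrays limits the precision.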

Additional observations from a re-analysis of the deposited data

How the results depend on the processing

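Of 1579 differences of the 10 tested probe sets over the 7 comparisons and all alternatives, 1453 kept their direction and their side of the threshold, 21 lost a call, 11 gained one and 94 changed sign. None of the 94 was a called value, and 64 of them came from leaving out 1 array. The counts over the members under the replicate number as a block were 6, 4 and 5 for the structure comparisons (both treatments, TsA, vehicle) and 0 for each TsA comparison, the same as without the block. Deviations of same-numbered arrays correlated at -0.0748 to 0.0563 in the accumbens, where 2 of the 6 arrays correlated best with their own number, and at -0.114 to 0.482 in the cingulate cortex, where 3 did. Across the structures they correlated at 0.0308 to 0.163 in the TsA arrays, where 6 of 6 matched their own number best, and at 0.0762 to 0.663 in the vehicle arrays, where 4 of 6 did. The matches are a hint from the data, not from the design. In none of the 4 sets was every pair over 0.1, so the numbers were not taken as a pairing. Of the probe sets called between the structures, 54.5% were higher in the accumbens with the deposited scaling, 47.6% after quantile normalization and 44.0% after median centring, while 6 members were called lower under each. The median difference of all probe sets was 0.04, -0.01 and -0.02 under these 3 scalings. With the wash run as a fixed block 2 members were called in the TsA arrays and 2 in the vehicle arrays, and with only the groups compared in the fit 3 were called in the vehicle arrays. Leaving out each array in turn gave 6 calls for both treatments, 2 to 5 for the TsA arrays and 4 to 6 for the vehicle arrays, and fewer arrays enter those fits. Fos and Junb in the TsA arrays and Fosb in the vehicle arrays were among the calls lost. Of the differences printed above, those of Jund changed sign: 1393138_at gave -0.032 after median centring, -0.17 with the wash run as a fixed block and -0.018 to 0.094 when each array was left out, and 1387762_s_at gave 0.48 with that block and -0.30 to 0.29 without single arrays. The cause was not tested. With 3 arrays a group, the 95% intervals of the TsA effects given above show the precision of each single value. They are not adjusted for the number of probe sets tested, whereas the calls are. A TsA effect therefore had to be larger than these intervals alone would require to be called. The smallest effect that could have been called was not worked out.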

Other observations

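Among the other early response genes, 22 of 28 had TsA minus vehicle values above 0 in the accumbens, with a median of 0.09 against 0.01 for all probe sets tested, and 11 of 28 had values above 0 in the cingulate cortex, with a median of -0.04 against -0.02. None of the 28 was called in either structure (limma), as none of all 18625 probe sets was, with 408 of all at an unadjusted p under 0.05 in the accumbens and 851 in the cingulate cortex. Of the 7 cortical projection neuron markers, 7 had values above 0 for TsA in the accumbens, with a median of 0.24, and 0 were called. The lowest adjusted p over all probe sets was 1.00 in the accumbens comparison and 0.751 in the cingulate comparison. The early response genes and the markers were not counted with the wash run as a block. Under that block the accumbens TsA median of all probe sets was -0.02. The share of all probe sets with values above 0 was not counted.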
